A study of Arabidopsis thaliana with 12 samples.

Results

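AT4G35660 and AT1G76220 are Arabidopsis thaliana genes whose predicted proteins carry DUF241, the database label of a protein domain of unknown function found in plants. They were chosen from the measured contrast itself, AT4G35660 because its fall at high iron was the largest of any gene with its own probe, and AT1G76220 because it rose. They are 2 of 691 genes with an own probe, meaning one annotated with exactly 1 gene, and each was measured by 1 probe. The plants were wild type of ecotype Columbia 0. Those of the control group grew at normal iron and those of the other group at high iron. Total RNA of 6 samples per group was measured on arrays that gave 1 intensity per probe for 3439 probes. Tissue, plant age, iron dose and length of treatment are not stated in the sources used here.

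Iron is needed for photosynthesis, respiration and the synthesis of haem and iron-sulphur clusters, but free iron reacts with hydrogen peroxide to give hydroxyl radicals. Plants therefore limit uptake and store iron in vacuoles and, bound to ferritin, in plastids. DUF241 proteins have no assigned biochemical function, and several of their genes stand close together on the chromosomes. Of the 12 further genes that were placed in the family from general knowledge, 4 lie within 10 annotated genes of AT4G35660 and 2 within 10 genes of AT1G76220.

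The samples of each group were numbered 1 to 6, and samples with the numbers 1 and 2, 3 and 4, and 5 and 6 varied together, as described in the account of the processing. Each of these is called a pair here. What the numbers stand for, and whether samples came from separate plants, is not in the labels, so errors over 6 samples measure a spread that may be technical. Column medians of the deposited intensities ranged from 0.555 to 0.618 in control samples and from 0.352 to 0.446 in high iron samples, so every change is given under more than 1 scaling. Of the genes fixed as tissue markers, 6 of 8 for green tissue had a probe of their own, and their average positions on the arrays lay at or above the 59.6th percentile. None of 6 root, 2 seed and 1 pollen markers, and none of 16 iron and oxidative stress genes, had such a probe, so these were not analysed here.

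AT4G35660 was a bright transcript in control plants and a moderate one in high iron plants. Its deposited intensity in control samples 1 to 6 was 3.76, 3.63, 3.57, 3.63, 4.998 and 4.56. In high iron samples 1 to 6 it was 0.658, 0.588, 0.537, 0.602, 0.619 and 0.884. All 6 high iron values lay far below the lowest control value, with a gap of 2.69 intensity units between the nearest samples of the groups. Within the control group samples 5 and 6 were the brightest, and within the high iron group sample 6 was. The mean fell from 4.03 ± 0.60 to 0.648 ± 0.122 (SD, n = 6 each), so that the control mean was 6.21 times the high iron mean. In whole-plant or tissue RNA, fewer cells that express a gene and less RNA per cell cannot be told apart.

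AT1G76220 moved the other way. Its deposited intensity in control samples 1 to 6 was 0.843, 0.840, 1.45, 1.45, 1.09 and 1.08. In high iron samples 1 to 6 it was 2.07, 2.05, 3.49, 3.69, 1.98 and 1.91. The 6 high iron values all lay above the highest control value, but the gap between the nearest samples was narrow, at 0.456 intensity units. Samples 3 and 4 were the brightest of their group in both groups. The mean rose from 1.12 ± 0.27 to 2.53 ± 0.82 (SD, n = 6 each), or 2.25 times the control mean.

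**Figure D1:**
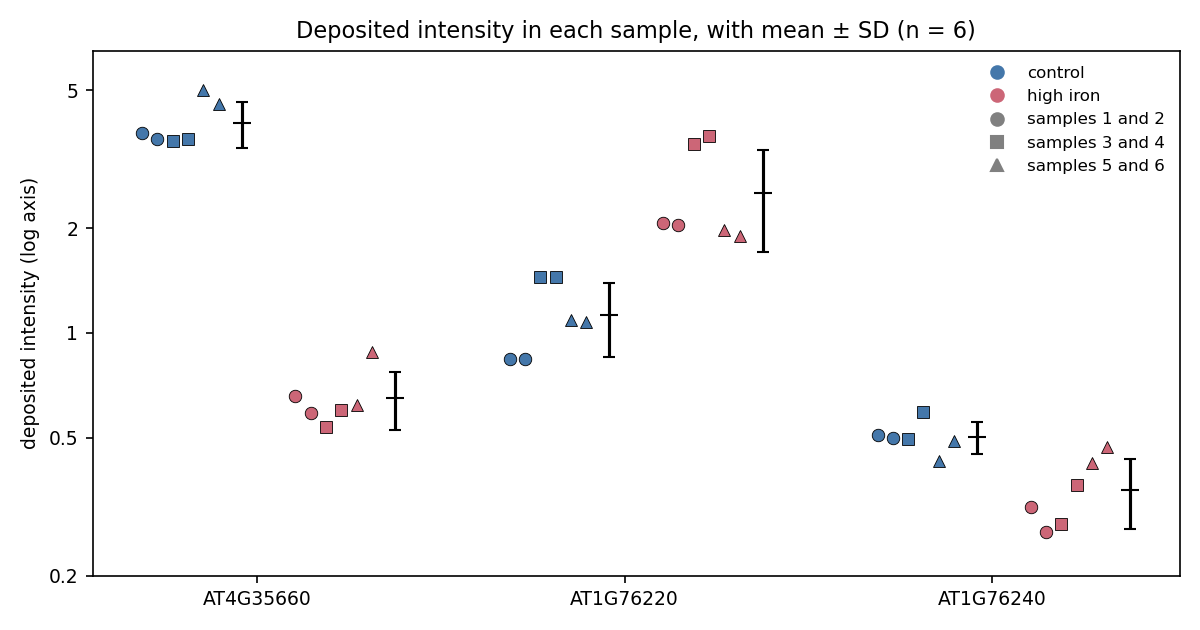
Deposited intensity (log axis) of AT4G35660, AT1G76220 and another DUF241 gene, AT1G76240, in each of 6 control (blue) and 6 high iron (red) samples. Symbols mark the pairs of sample numbers, and the bars give mean ± SD. AT4G35660 lies between 3.57 and 4.998 in control samples and between 0.537 and 0.884 at high iron, AT1G76220 between 0.840 and 1.45 and between 1.91 and 3.69, and the groups overlap for AT1G76240.

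The order of each transcript among all probes of the same array does not depend on how arrays are scaled. AT4G35660 stood between the 97.7th and the 98.6th percentile of the probes in control samples and between the 66.7th and the 81.3rd in high iron samples. AT1G76220 stood between the 71.0th and the 90.6th percentile in control samples and between the 93.7th and the 97.0th at high iron. The first gene stood lower on every high iron array than on any control array, and the second higher, although control samples 3 and 4 of the second, at the 90.5th and 90.6th percentile, were already close to its high iron positions.

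After quantile normalization, which gives all arrays the same distribution, the log2 change of AT4G35660 was -2.72 (SE 0.12, limma over 12 samples) and that of AT1G76220 was 1.17 (SE 0.22). These correspond to 6.59-fold lower and 2.25-fold higher levels at high iron. With each pair averaged, which leaves 3 values per group, the changes are the same and the SEs are 0.15 and 0.32. With the pair as a random block the SEs are 0.21 for AT4G35660 and 0.22 for AT1G76220. No test is given for either change, because the genes were chosen on this contrast. For orientation, 33.4% of all probes passed limma's threshold over the 12 samples, 15.2% with a lower and 18.2% with a higher level at high iron, and nothing is read from the place of these genes among them. No value of either gene was 0 or lay at the floor of the scale.

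AT4G35660 had the largest fall of the 692 single-gene probes under quantile normalization, median scaling and with deposited values. The gene was chosen for this fall, and the scalings share the same arrays, so nothing is read from its place. The next largest fall under quantile normalization was that of AT5G38750, at -1.55 on the log2 scale. Among all 3439 probes its fall ranked 3rd under quantile normalization and 4th under both other scalings, behind probes that are not named here. AT1G76220 had the 7th largest rise of the single-gene probes, between AT2G37510 at 1.18 and AT1G51350 at 1.15, and the 37th largest of all probes. Its place among the single-gene rises was 6th under both other scalings. As AT1G76220 was chosen because it rose, nothing is read from its places either.

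Both genes lay in the brightest 10th of the probes by mean level, 344 probes with a median change of 0.05 on the log2 scale after quantile normalization. Of these 344 probes AT4G35660 was the 1 that fell as far as it did, and 4, AT1G76220 included, rose at least as far as AT1G76220. Both genes were chosen on this contrast, so nothing is read from these counts. Median scaling and the deposited values shift these bright probes upward, by a median of 0.81 and 0.28, while the median of all probes stands at 0.02 and -0.40. Its part in the size of the changes was not tested.

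**Figure D2:**
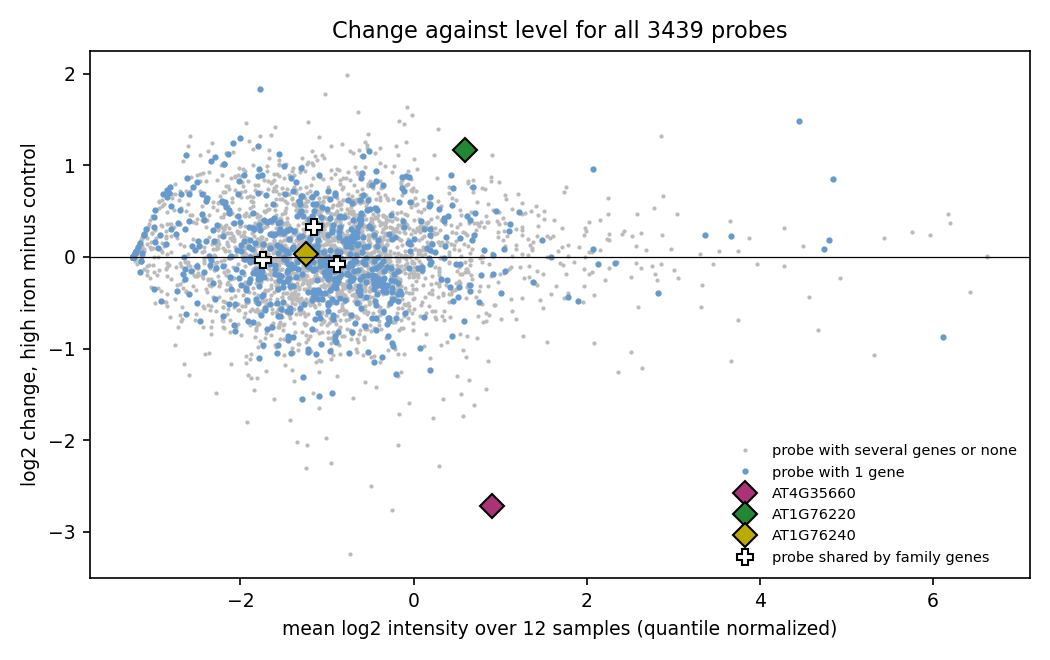
Log2 change at high iron (vertical axis) against mean log2 intensity over the 12 samples (horizontal axis) for all 3439 probes after quantile normalization. AT4G35660 lies at -2.72 and AT1G76220 at 1.17, while AT1G76240 and the 3 probes shared by family genes lie between -0.08 and 0.33.

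Median scaling altered the sizes of both changes, while the difference between the genes hardly moved. Between median scaling and deposited values that difference is the same by construction. With median scaling the log2 change was -2.12 (SE 0.12) for AT4G35660 and 1.67 (SE 0.28) for AT1G76220, that is, 4.34-fold lower and 3.19-fold higher. With deposited values it was -2.64 (SE 0.13) and 1.15 (SE 0.22). Median scaling thus gave the smallest fall of the first gene and the largest rise of the second. The groups did not overlap for either gene under any of the 3 scalings. Of all probes, 8.32% were lower without overlap after quantile normalization, 6.54% after median scaling and 27.4% with deposited values, and 9.77%, 16.7% and 4.89% were higher without overlap. Since the choice of genes used this contrast, nothing is read from the absence of overlap.

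The difference between both changes, AT4G35660 minus AT1G76220, was -3.89 log2 units after quantile normalization and -3.79 with either median scaling or deposited values. Dividing an array by 1 number cancels in this difference, so the last 2 values agree by construction. By sample number, from the samples 1 to 6 of both groups, the difference of the deposited values was -3.81, -3.92, -4.01, -3.94, -3.88 and -3.19. It was smallest in number 6, where AT4G35660 had its highest high iron value.

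The pairs of sample numbers gave the same direction for each gene but different sizes. After quantile normalization AT4G35660 changed by -2.66 in samples 1 and 2, by -2.57 in samples 3 and 4 and by -2.93 in samples 5 and 6. AT1G76220 changed by 1.46, 1.17 and 0.87 in the same pairs. As pair means, samples 5 and 6 thus had the largest fall of the first gene and the smallest rise of the second, under all 3 scalings. The larger fall came from number 5, at -3.24 after quantile normalization. Number 6 stood at -2.63, a smaller fall than the -2.72 of number 2. With deposited values number 6 had the smallest fall of all numbers, at -2.37. Between the other pairs the order depended on the scaling. With deposited values AT1G76220 changed by 1.29, 1.31 and 0.84, and AT4G35660 by -2.57, -2.66 and -2.69.

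**Figure D3:**
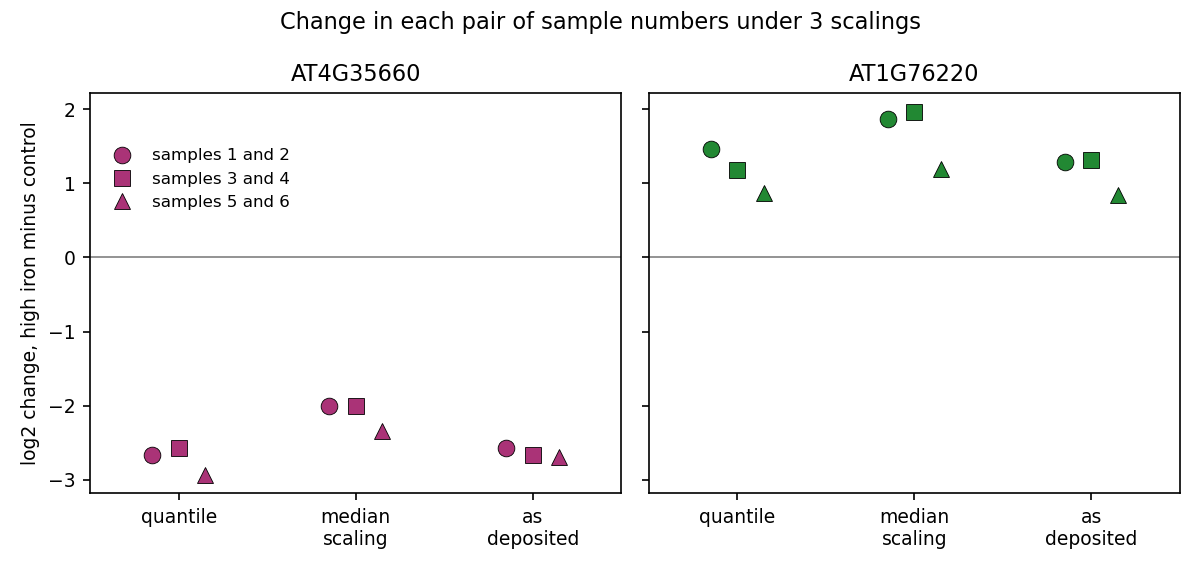
Log2 change at high iron (vertical axis) in each pair of sample numbers for AT4G35660 (left) and AT1G76220 (right) under 3 scalings (horizontal axis); each point is the mean of 2 high iron samples minus that of 2 control samples. The 9 points of AT4G35660 all lie well below 0, the lowest at -2.93, and the 9 points of AT1G76220 lie between 0.84 and 1.97.

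The genes differed in how their values scattered within a group. The 2 samples of a pair gave nearly equal values for AT1G76220, with an SD within pairs of 0.040 log2 units after quantile normalization, and only 1.26% of the 2929 probes with no value at the floor had a smaller one. Its pair means, in contrast, varied with an SD of 0.45 within a group, 11.3 times as much, and 89.1% of these probes varied less. For AT4G35660 the SD was 0.16 within pairs and 0.20 between pair means, a ratio of 1.26. Means of 2 samples scatter less than single samples, so equal SDs would not mean that the pairs were alike. The medians of the 2929 probes were 0.12 within and 0.27 between pairs.

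For each gene the pair with the highest mean was the same in both groups, but not every pair kept its place. In AT1G76220 the mean of samples 3 and 4 lay 0.47 above the group mean in control and 0.48 above it at high iron, on the log2 scale. Samples 1 and 2 lay 0.48 below the group mean in control and 0.19 below it at high iron. In AT4G35660 it was the mean of samples 5 and 6 that lay above the group mean, by 0.31 in control and by 0.09 at high iron. At high iron this came from sample 6 alone, at -0.11, while sample 5, at -0.60, was the lowest of its group. The number of a sample therefore carried part of the spread of AT1G76220 across both groups. With the replicate number as a block the SE of its change was 0.10 in place of 0.22. That block counts the 2 nearly equal samples of a pair separately, so 0.10 may understate the error. Over the averages of the pairs the SE was 0.14 with the replicate block and 0.32 without it.

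**Figure D4:**
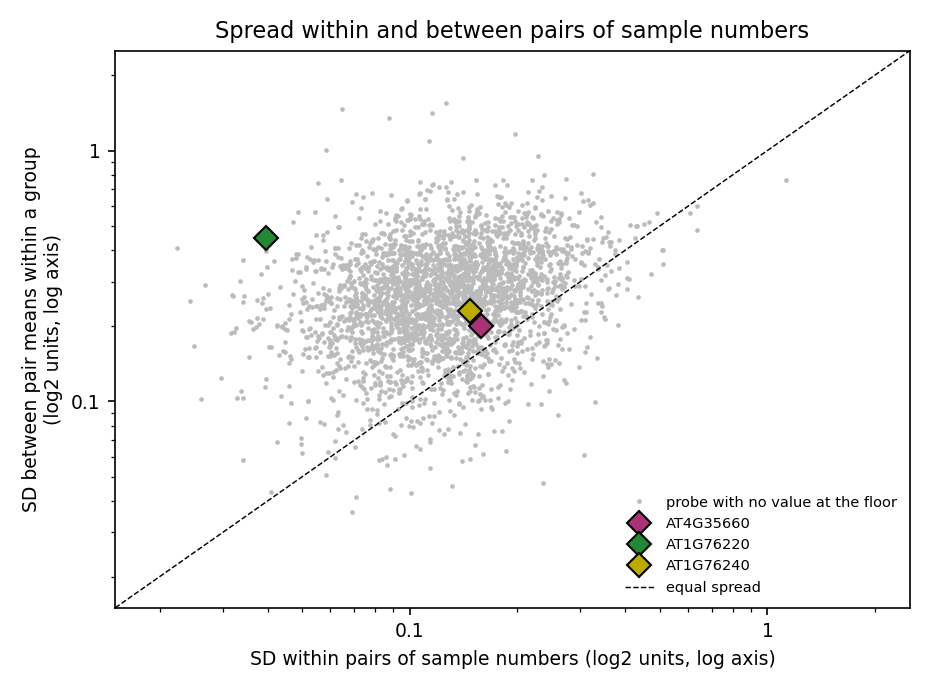
SD between pair means within a group (vertical log axis) against SD within pairs (horizontal log axis), in log2 units, for the 2929 probes with no value at the floor. AT1G76220 lies at 0.040 and 0.45, far left of most probes, and AT4G35660 at 0.16 and 0.20, near the dashed line of equal spread. That line does not mark the absence of a difference between pairs.

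Probes with neighbouring numbers, which may lie close together on the array, showed no changes of like size. The median log2 change of the 4 nearest probe numbers was 0.18 around AT4G35660, ranging from -0.66 to 0.35, and -0.05 around AT1G76220, ranging from -0.31 to 0.09. Removing a running median over 51 probe numbers left changes of -2.74 and 1.14 for these genes.

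One other gene placed in the DUF241 family, AT1G76240, had a probe of its own, and it lies 3 annotated genes from AT1G76220. It was the 1 gene with such a probe among the 20 nearest neighbours of AT1G76220, and AT4G35660 had none among its 20. The deposited intensity of AT1G76240 in control samples 1 to 6 was 0.507, 0.4997, 0.497, 0.591, 0.427 and 0.488. In high iron samples 1 to 6 it was 0.316, 0.267, 0.282, 0.365, 0.422 and 0.469. The groups overlapped, with high iron samples 5 and 6 near the lower control samples. After quantile normalization its log2 change was 0.03 (SE 0.14, adjusted p = 0.899 in limma, Benjamini-Hochberg), and after median scaling -0.01 (adjusted p = 1). With deposited values it stood at -0.53 (SE 0.15, adjusted p = 0.0117), which is -0.13 relative to the median of all probes. A probe shared with other genes also lists AT1G76240, and cross-hybridization between relatives was not tested.

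Another 3 probes were annotated with several genes, all of them on the family list. Their genes are not named, because a value cannot be assigned to 1 of them. Neither AT4G35660 nor AT1G76220 is listed on any probe with several genes. Together with that of AT1G76240 these made 4 probes, of which 0 rose and 0 fell in limma over 12 samples, against 33.4% of all probes past the threshold. At an unadjusted p under 0.05 the count was 0 of 4 as well, against 42.0% of all probes. At the adjusted threshold it was also 0 over the 6 averages, where 2.38% of all probes passed, after median scaling, where 37.4% did, and with the pair as a random block, where 14.3% did. Their changes ranged from -0.08 to 0.33, with a median of 0.00, which is also the median of all probes. The SEs of the 3 shared probes were 0.394, 0.155 and 0.268, so moderate changes in them could have been missed. The probe with the largest SE had a deposited value of 0 in high iron sample 3, which was set to the floor. With deposited values 2 of the 4 passed with lower values. Of all 3439 probes, 1601 passed with lower values there, and 55.0% passed in either direction. The median change of the 4 was -0.54 with deposited values, against -0.40 for all probes. The difference between these probes and either of the chosen genes was not tested.

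The single-gene probes most like each gene were found by Pearson correlation over the 12 samples, among 589 other probes with no value at the floor. These correlations describe a likeness that rests mainly on the step between the groups, which all 12 points share, and carry no test. Most like AT4G35660 were AT3G18870 (r = 0.987), AT1G03660 (0.980), CCL (AT3G26740, 0.941), AT1G17744 (0.931) and AT2G36480 (0.927). CCL is a gene whose short-lived transcript is under control of the circadian clock. These 5 transcripts had log2 changes from -1.28 for AT2G36480 to -0.39 for CCL, so each followed the pattern of AT4G35660 at a smaller size. Most like AT1G76220 were AT3G57630 (r = 0.962), CBL (AT3G57050, 0.952), AT1G78620 (0.951), AT4G27250 (0.944) and AT2G05120 (0.934). CBL is the cystathionine beta-lyase of methionine synthesis. Their log2 changes ranged from 0.61 for AT2G05120 to 1.22 for CBL.

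With the group means removed, other genes were most alike, and how far this likeness follows the pairs of sample numbers was not tested. For AT1G76220 these were PIFI (AT3G15840, r = 0.947), NdhS (AT4G23890, 0.940), AT1G31220 (0.934), Z-ISO (AT1G10830, 0.913) and AT2G32040 (0.881). NdhS is a subunit of the chloroplast NAD(P)H dehydrogenase-like complex of cyclic electron flow, PIFI is a chloroplast protein linked to the same pathway, and Z-ISO is the zeta-carotene isomerase of carotenoid synthesis. For AT4G35660 they were AT2G26680 (r = 0.873), GLR2.7 (AT2G29120, 0.811), AT2G19280 (0.808), AT2G30320 (0.794) and AT2G02590 (0.790). GLR2.7 belongs to the glutamate receptor-like channels. The changes of these 10 genes at high iron ranged from -0.28 for AT2G19280 to 0.51 for AT2G26680. Between AT4G35660 and AT1G76220 themselves r was -0.855 over the 12 values, a size that the choice of a falling and a rising gene fixes in part, and -0.208 once the group means were removed.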

How the data were processed

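The authors deposited, for each probe and array, 1 linear intensity from 0 to 100. The sources used here do not give scanning, background correction or scaling, and unit and centring stay unknown. Of 3439 probes, 692 had 1 gene in the platform annotation (691 genes), 870 several and 1877 none. A gene table of assembly TAIR10.1 updated the symbols of 690 of the 692 by gene number and gave the order of genes. No positions are printed, because the sources name no build.

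Column medians differed by up to 1.76 times, and quantile normalization was therefore applied. Next, values below 0.106 (the 5th percentile of positive values) were set to it, and log2 was taken. This understates changes of dim probes. Changes are high iron minus control from limma 3.58.1 in R 4.3.3 (lmFit, eBayes with a mean trend), over 12 samples. Two-sided p-values were adjusted across all probes (Benjamini-Hochberg), with 0.05 as threshold. The fit was tested on simulated data in which all samples were independent. Those data held no likeness within pairs, so they cannot show the error rate in the present samples.

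Groups come from the source names and numbers from the titles. Deviations from the group means, correlated over all probes, gave 0.56 to 0.82 within pairs of a group and -0.70 to -0.25 between them. Same-numbered samples of both groups correlated between 0.13 and 0.52. Samples of the same pair but the other number correlated across the groups between 0.11 and 0.49, nearly the same range. Among samples of the other group, each of the 12 was closest to its own number. By this check the samples are alike across the groups by pair and by number, which the data show and the labels do not state. The fit stayed without the block, which was an alternative.

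Further alternatives were the scaling, the floor, a filter on dim probes, averages of the pairs, the pair as a random block (statmod 1.5.0, correlation 0.774), array weights, a running median over probe numbers, and leaving out samples or pairs. The genes, lists and tests were chosen with earlier results of these data known. Named were both genes, every measured family gene or neighbour within 10 genes on each side, and the 5 probes most alike by each measure. Genes next in the order of changes (AT5G38750, AT2G37510 and AT1G51350) were named after their values were seen. The family list comes from general knowledge, since the annotation used names no domain. The planned search for relatives by protein sequence was not run, because no protein sequences were used here.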

Additional observations from a re-analysis of the deposited data

How the results depend on the processing

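AT4G35660 stayed lower and AT1G76220 higher at high iron under all 25 alternatives run. The genes were chosen for these directions in the same samples, so nothing is read from this. Averages, blocks, leaving out the floor and the filter on dim probes could not alter the estimates, which stayed at -2.72 and 1.17. The changes of both genes moved by more than the spread between replicates with median scaling alone, to -2.12 and 1.67. Leaving out 1 sample in turn gave -2.79 to -2.65 for AT4G35660 and 1.06 to 1.27 for AT1G76220, and -4.03 to -3.78 for their difference. Array weights gave 0.81 for AT1G76220.

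The count of probes past the threshold was 1149 over 12 samples. It was 1892 with deposited values, 491 with the pair as a random block, 82 over the 6 averages and 1 over the averages with the replicate block. With the replicate block over 12 samples, which follows the pairing of the numbers, 1392 probes passed. Leaving out 1 sample gave 1000 to 1172. Higher levels made up 54.4% of the calls, 66.1% after median scaling and 15.4% with deposited values.

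The alternatives for AT1G76240 were added after the data were seen. Its sign is not settled: it stood at -0.53 with deposited values, the 1 setting in which it passed, at -0.0055 after median scaling, at -0.25 with array weights and at -0.11 without samples 5 and 6 of both groups, but at 0.34 with the running median over probe numbers removed and at 0.14 without samples 1 and 2 of both groups, and from -0.018 to 0.12 with 1 sample left out. The replicate block changed no call of this gene. The number of arrays limits the precision.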
